A study of Homo sapiens with 4 samples.

Results

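The regions described here are the longest runs of neighbouring FOXA2 peaks in PC3 cells, counted in summits. They are 86 stitched clusters, each a run of at least 5 peaks. A peak is an interval in which sequenced fragments pile up above the local background, and its summit is the position with the most fragments. Summits of the vehicle list on chromosomes 1 to 22 and X were chained wherever neighbours lay 12.5 kb or less apart, and chains of 5 or more summits were kept. The clusters held 599 of the 21308 vehicle peaks (2.81%, exact 95% interval 2.59 to 3.04) and spanned 2199 kb in all. Of the 14846 GSK2879552 peaks, 427 had a summit inside a cluster span. The members were thus chosen on vehicle values, so the number and spacing of vehicle summits in them is a description of the choice.

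FOXA2 is a forkhead transcription factor, known as a pioneer factor because it can bind its sites on nucleosomes and open compact chromatin. Runs of closely spaced transcription factor sites often mark extended enhancer regions, and joining neighbouring peaks over 12.5 kb is the usual first step in defining super-enhancers. No mark of enhancer activity was measured here, so the runs are called clusters only. LSD1 (KDM1A) is a histone demethylase that removes methyl groups from lysine 4 of histone H3 and also acts on other proteins.

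The study compared FOXA2 chromatin immunoprecipitation followed by sequencing (ChIP-seq) in cells given 50 µM GSK2879552, an LSD1 inhibitor, for 4 hours with the same line given vehicle. PC3 is an established, androgen-independent prostate cancer line. Both groups were maintained with 10% FBS, and the treatment protocol names medium with 5% CSS; the labels give no separate protocol for vehicle. Each group gave 2 sequencing lanes, called technical replicates by the labels, and 1 peak list over both lanes. There is therefore no spread between cultures, no test between the groups was possible, and every difference below is between 2 libraries. Intervals are 95% and cover counting error only.

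Fragments at each summit and the local background beneath it, in fragments, were recovered from the deposited fold and −log10 p. The lowest background met corresponds to 6.44 reads per kb in the GSK2879552 library and 6.17 in the vehicle library, which is the depth of each if no control sample entered the calling. In 15 of the 86 clusters at least 1 vehicle summit lay on a local background of 25 fragments or more. These high-background clusters held 122 of the 126 such vehicle summits on the 23 chromosomes used. They stand apart from the rest in almost every value, so results are given with them and without them. The remaining 71 are called low-background clusters.

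The low-background clusters were spread over 18 chromosomes. They held 403 vehicle peaks, 1.91% of those on the 23 chromosomes. Of these clusters 42 had 5 vehicle peaks, 17 had 6, 6 had 7, 5 had 8 and 1 had 9. The spans had a median of 24317 bp (4710 to 45439). Chromosome 3 carried 10 of these clusters, chromosome 2 carried 9 and chromosome 7 carried 6, whereas chromosomes 13, 16, 19, 22 and X carried none. Relative to its number of peaks, chromosome 20 was richest, with 5.57% of its vehicle peaks in 5 low-background clusters, followed by chromosome 17 with 3.64% in 4.

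Neighbouring summits in the low-background clusters were a median of 5166 bp apart (quartiles 1875 to 7883). Other peaks within 12.5 kb of a neighbour had a median gap of 5491 bp (2094 to 8575), so spacing inside the clusters was close to that in shorter chains. Gaps of 1000 bp or less made up 14.5% (10.9 to 18.7) of those in the clusters and 12.9% (11.8 to 14) of those outside. Most gaps were thus far longer than the peaks themselves, whose median width was 280 bp in low-background clusters and 258 bp outside clusters.

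Cluster peaks carried more vehicle fragments than other vehicle peaks, on a higher background. The median at the summit was 29 fragments (quartiles 20 to 47) in low-background clusters and 18 (14 to 27) at the 20466 other peaks. The local background was 3.27 fragments against 1.65, equal to 187 and 94 reads in the surrounding 10 kb. The fold enrichment reported by the authors was accordingly lower in the clusters, 6.19 against 7.13, although the median −log10 p was higher, 15.6 against 13.5. In low-background clusters 144 summits had no other vehicle summit within 5000 bp, and their median background was 2.30 fragments. The remaining summits had at least 1 other inside the 10 kb around them. The part of such neighbours in the higher background was not tested.

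Every member was called in vehicle by the rule, so the GSK2879552 list can only hold as many or fewer of them, and the shares below describe the 2 lists without measuring a change. Of the 403 vehicle peaks in low-background clusters, 298 (73.9%, 69.4 to 78.2) overlapped a GSK2879552 peak by 1 bp or more. Outside clusters 61.4% of vehicle peaks did so (12570 of 20466), and on the 23 chromosomes as a whole 62% did. In the high-background clusters the share was 93.9% (89.5 to 96.8; 184 of 196), which lifts the share over all 86 clusters to 80.5% (77.1 to 83.6). Every one of the 86 clusters kept at least 1 GSK2879552 peak, when a peak that overlaps a vehicle peak at the end of a span is counted.

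**Figure D1:**
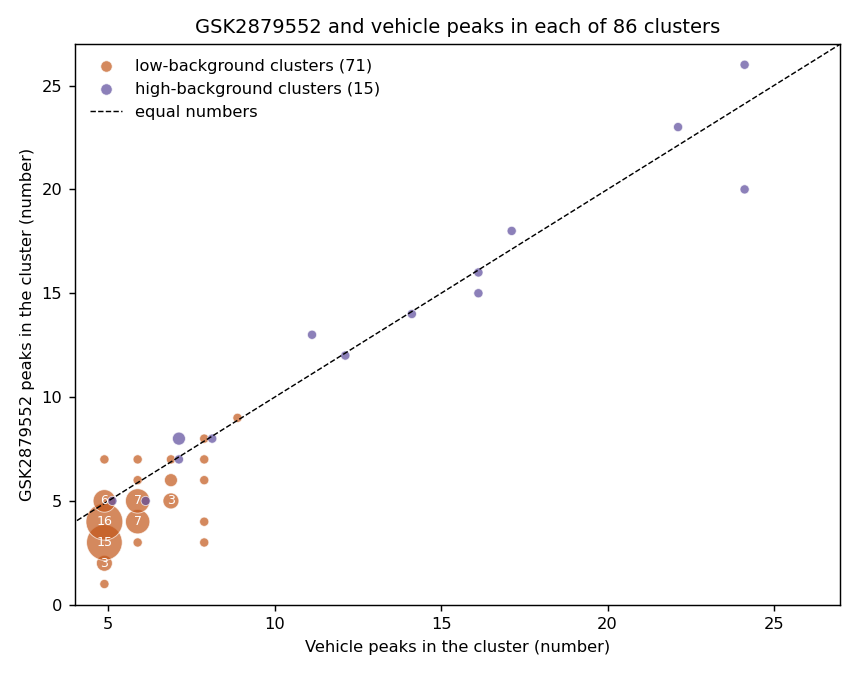
Number of GSK2879552 peaks (vertical axis) against number of vehicle peaks (horizontal axis) in each cluster, with circle area proportional to the number of clusters and that number written where it is 3 or more. Most low-background clusters (orange) lie under the dashed line of equal numbers, 59 of 71, whereas 12 of the 15 high-background clusters (purple) lie on or above it.

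Cluster by cluster, 59 of the 71 low-background clusters had fewer GSK2879552 than vehicle peaks, 10 had equal numbers and 2 had more. No vehicle peak was without an overlap in 10 clusters, 1 was in 28, 2 were in 25, 3 were in 6, 4 were in 1 and 5 were in 1. In low-background clusters built on GSK2879552 summits, 21 of 31 had fewer vehicle than GSK2879552 peaks, 8 had equal numbers and 2 had more vehicle peaks. That tally took only vehicle summits inside the spans, whereas the first also counted GSK2879552 peaks overlapping an end peak. The 2 tallies are therefore not alike, and the reverse tally with end peaks was not made. Each set of clusters was chosen on the peaks of 1 list, so neither tally is read as a change. Among the 42 clusters with 5 vehicle peaks, 16 had 4 GSK2879552 peaks and 15 had 3. Of the high-background clusters 3 had fewer GSK2879552 peaks, 6 had equal numbers and 6 had more.

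Since 42 of the 71 sat exactly at the limit of 5 vehicle summits, 1 uncalled peak was enough to take these below the rule. In 23 of the 71 low-background clusters 5 or more GSK2879552 peaks were still chained at 12.5 kb, against all 15 high-background clusters. In 21 low-background clusters the GSK2879552 peaks fell into 2 or more pieces separated by more than 12.5 kb, and in 50 they formed 1 chain. Of the 242 GSK2879552 peaks inside low-background spans, 235 (97.1%) overlapped a vehicle peak, beside 89.3% of GSK2879552 peaks on the 23 chromosomes. Spans chosen for runs of vehicle peaks favour such overlap. The 7 that overlapped none lay each in a different cluster. They carried from 9 fragments at chr7:14801155-14801382 to 59 at chr10:42363379-42363546.

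The ratio of peak numbers depended on how a span is bounded. By summits strictly inside the spans, 242 GSK2879552 peaks stood against 403 vehicle peaks in low-background clusters, a ratio of 0.600 (0.510 to 0.706). A span begins and ends at a vehicle summit, so the partner of an end peak falls outside when its summit is shifted outward by a few bases. Counting the 61 GSK2879552 peaks that overlap an end peak in this way gave 303, a ratio of 0.752 (0.646 to 0.875), beside 0.695 (0.680 to 0.710) for the other peaks. In high-background clusters the ratio was 0.944 (0.768 to 1.16) inside the spans and 1.01 with the ends.

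Clusters built the other way round gave a ratio in the other direction, with an interval that also held equal numbers. The same rule applied to GSK2879552 summits found 47 clusters, 31 of them low-background by their GSK2879552 summits. Those 31 held 183 GSK2879552 peaks and 150 vehicle summits inside their spans, a ratio of 1.22 (0.978 to 1.52). Vehicle peaks overlapping only at the ends of these spans were not counted, and their part in this ratio was not tested. The direction of the ratio inside the spans thus differed with the list that defines the clusters, and neither ratio is read as a change. Of the 31, 26 met a cluster built on vehicle summits, while 27 of the 71 low-background and all 15 high-background vehicle-built clusters met one built on GSK2879552 summits.

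Within a cluster, stronger vehicle peaks more often had a GSK2879552 counterpart, as did peaks at large. Outside clusters the overlapped share was 27.8% at 1 to 14 vehicle fragments, 61.6% at 15 to 24, 94.3% at 25 to 49 and 99.6% at 50 or more. The strongest vehicle peak of the cluster was overlapped in 70 of 71 low-background clusters (98.6%, 92.4 to 99.96), and its median was 54 fragments. The second was overlapped in 66 of 71 at a median of 37 fragments, the third in 56 at 28, the fourth in 46 at 24 and the fifth in 32 (45.1%) at 18. Ranks of 6 and lower, found in the longer clusters, were overlapped in 28 of 48 at a median of 21. The strongest vehicle peak paired with the strongest GSK2879552 peak in 51 of the 71 clusters. The exception among strongest peaks was chr2:90381273-90381472, with 52 vehicle fragments on a background of 15.9 and no overlapping GSK2879552 peak.

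**Figure D2:**
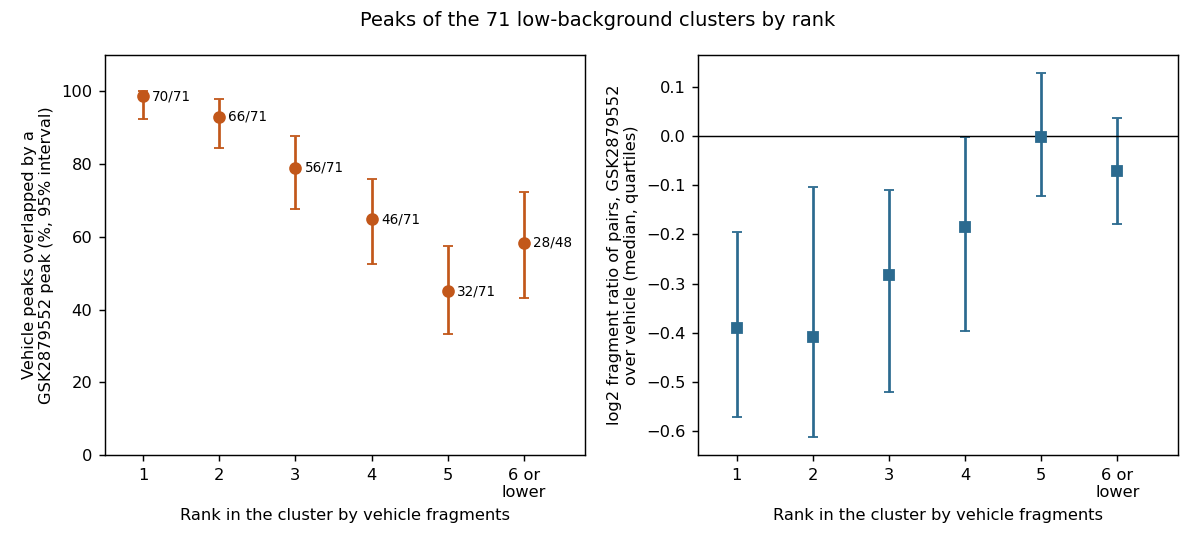
Peaks of the 71 low-background clusters by rank in vehicle fragments within their cluster. These fragments are also the denominator of the ratio on the right. Left: percent of vehicle peaks overlapped by a GSK2879552 peak, with exact 95% intervals and numbers, lower from 98.6% at rank 1 to 45.1% at rank 5; right: log2 fragment ratio of pairs, GSK2879552 over vehicle, as median and quartiles, from -0.39 at rank 1 to 0.00 at rank 5.

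The overlapped share was close at the ends and inside the clusters. First and last summits were overlapped in 74.6% (66.7 to 81.6; 106 of 142) and inner summits in 73.6% (67.8 to 78.8; 192 of 261). Summits with no other vehicle summit within 5000 bp were overlapped in 71.5% (63.4 to 78.7), those with 1 in 73.2% (65.6 to 80.0) and those with 2 in 72.3% (59.8 to 82.7). Those with 3 or more reached 89.2% (74.6 to 97.0; 33 of 37), and their median was 60 fragments on a background of 16.4, against 24 fragments on 2.30 for summits with no such neighbour. Strength and background moved together with the number of close neighbours, and their separate parts were not tested.

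Cluster peaks without a GSK2879552 counterpart were stronger than such peaks elsewhere. The 105 of low-background clusters had a median of 19 vehicle fragments (15 to 25), against 14 (12 to 17) for the 7896 outside clusters. With 25 fragments or more there were 27 of 105 (25.7%, 17.7 to 35.2) in low-background clusters and 290 of 7896 (3.67%, 3.27 to 4.11) outside. Cluster peaks were stronger as a whole, called in both lists or not. Of all 403, 162 had 25 to 49 fragments and 85 had 50 or more, against 4957 and 1154 of the 20466 other peaks. The local background of the 105 was also higher than that of the 7896, 2.64 against 1.42 fragments. A GSK2879552 summit lay within 5000 bp of 57 of the 105, at a median distance of 4057 bp over all 105. After the chromosome 2 peak already given, those with most fragments were chr10:54212404-54212719 with 50, chr4:49646663-49646843 with 48 and chr3:187983902-187984141 with 44, chosen after their values were seen.

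The number of fragments needed for a call was higher where the background was higher. The weakest GSK2879552 peak called had 7 fragments where the background was under 2, 14 where it was 3 to 5 and 28 where it was 10 to 25. The matching vehicle minima were 7, 14 and 29. A cluster site with a given number of fragments was thus closer to the calling limit than an isolated site with the same number.

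Whether clusters kept more or fewer sites than other peaks of like strength turned on how strength was matched. Over 10 bins of equal size by −log10 p, the share in low-background clusters was higher than that of other peaks in 8 bins, lower in 1 and equal in 1. Weighted to the clusters' bins, the other peaks' share was 68.6%, under the 73.9% of the clusters. Over 10 bins by vehicle fragments the clusters were higher in 3 bins and lower in 7, and the weighted share of the other peaks was 81.0%. The sign of the difference was therefore opposite by the 2 measures.

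Matched on fragments and local background together, the shares lay close to each other. Weighted to the clusters' classes of both measures, 72.5% of other peaks overlapped a GSK2879552 peak, beside 73.9% (69.4 to 78.2) in low-background clusters. At 15 to 24 fragments and a background under 2, 66.7% (20 of 30) of cluster peaks and 66.5% of other peaks overlapped. At the same fragments and a background of 2 to 3 these were 53.2% (25 of 47) and 52.5%. At 25 to 49 fragments they were 95.3% (41 of 43) and 95.6% at a background of 2 to 3. At a background of 3 to 5 they were 84.6% (55 of 65) and 88.3%. In each of these 4 classes the interval of the cluster share held the share of the other peaks. Peaks with 1 to 14 fragments on a background under 2 were the class furthest apart among those with 30 or more cluster peaks, with 45.5% (28.1 to 63.6; 15 of 33) in clusters and 28.2% (27.1 to 29.4) outside. These classes were chosen after the bins had been seen.

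**Figure D3:**
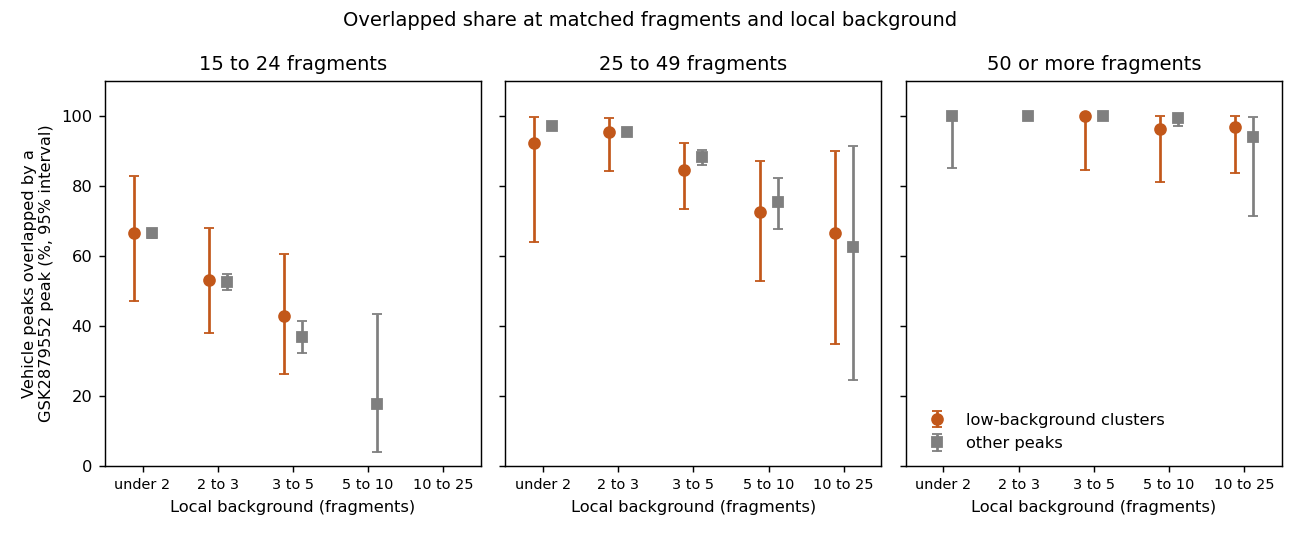
Percent of vehicle peaks overlapped by a GSK2879552 peak (exact 95% interval) by local background in fragments, for peaks with 15 to 24, 25 to 49 and 50 or more vehicle fragments, in low-background clusters (orange circles) and other peaks (grey squares). Sets of fewer than 5 peaks are not drawn, and at 15 to 24 fragments both sets are lower at a higher background, for example 66.7% and 66.5% at a background under 2 against 42.9% and 36.7% at 3 to 5.

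Sites called in both lists carried fewer fragments after GSK2879552. Peaks that were each other's best overlapping partner are called pairs, and their fragment ratios were scaled by the background floors of the 2 libraries. Over 295 pairs of low-background clusters the median was 29 GSK2879552 and 35 vehicle fragments. The median log2 ratio was -0.25 (-0.32 to -0.20; quartiles -0.49 to -0.03), a ratio of 0.838. Fewer GSK2879552 fragments were found at 224 pairs (75.9%), equal numbers at 18 and more at 53; over all 13037 pairs on the 23 chromosomes, 78.2% had fewer. A ratio at least 1.5-fold lower was reached by 54 pairs (18.3%) and at least 1.5-fold higher by 2 (0.678%), beside 25.1% and 0.836% of all pairs.

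At other peaks the pairs had a median of 18 GSK2879552 and 23 vehicle fragments and a log2 ratio of -0.34 (-0.34 to -0.32). Without the 8 low-background clusters whose highest background was 10 to 25, the cluster median lay closer to that of other peaks. Over the remaining 63 clusters and 252 pairs, the log2 ratio was -0.31 (-0.37 to -0.24), and the overlapped share was 72.2%. This interval overlapped that of all low-background clusters. The limit was added after seeing the data and was not applied to the other peaks. Cluster pairs with 25 to 49 vehicle fragments had a median of -0.40 (-0.49 to -0.32) at a background of 3 to 5, and other pairs -0.40 (-0.43 to -0.37). Pairs with 50 or more vehicle fragments at that background had -0.31 (-0.69 to -0.19) in clusters, over 22 pairs, and -0.44 (-0.47 to -0.41) outside. At a background of 5 to 10 the same comparison gave -0.19 (-0.49 to -0.10) and -0.40 (-0.45 to -0.36). The intervals of clusters and other pairs overlapped in these 3 classes. They did not overlap at 25 to 49 fragments on a background under 2, where the order was the other way: 12 cluster pairs had -0.72 (-0.83 to -0.61) and other pairs -0.52 (-0.54 to -0.49). The sign of the distance between clusters and other pairs therefore differed between classes.

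**Figure D4:**
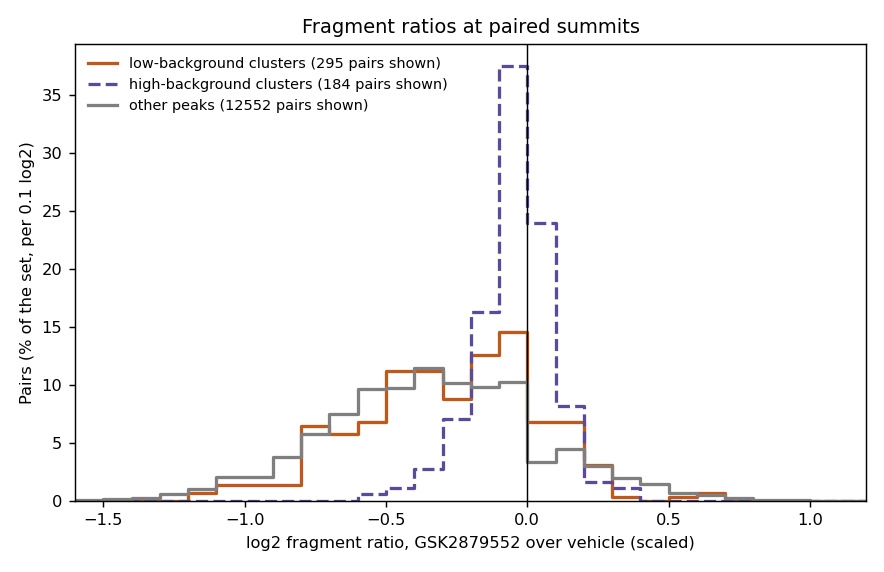
Distribution of the log2 fragment ratio, GSK2879552 over vehicle, at paired summits of low-background clusters (orange), high-background clusters (purple, dashed) and other peaks (grey), in percent of each set per 0.1 log2; 6 other pairs lie beyond the axis. Medians are -0.25, -0.04 and -0.34, and the high-background pairs crowd closest to 0.

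By rank, the log2 ratio was -0.39 at the strongest vehicle peak of a low-background cluster, -0.41 at the second, -0.28 at the third, -0.18 at the fourth and 0.00 at the fifth. The ranks were set by vehicle fragments, the denominator of the ratio, which by itself favours lower ratios at the strongest peaks. Pairs outside clusters had -0.003 at 1 to 14 vehicle fragments, -0.30 at 15 to 24, -0.46 at 25 to 49 and -0.45 at 50 or more. The order by rank is therefore not read as a trait of clusters. A weak vehicle peak enters a pair only where its GSK2879552 partner passed the calling limit, so the ratios at low ranks leave out the peaks that were not called. The pooled SD of the log2 ratio among pairs of the same cluster was 0.304, and over all low-background cluster pairs it was 0.322. Both are cut by the calling limit, since a pair needs a called peak in each list, so they are no measure of how evenly a cluster's sites differ. Summed over its pairs, a low-background cluster had a median log2 ratio of -0.32 (-0.36 to -0.25; range -0.75 to 0.24). The summed ratio was below 0 in 66 of 71. No matching count was made for sums over other chains. Of all 13037 single pairs, 78.2% had fewer GSK2879552 fragments, which by itself favours sums below 0. The count of 66 is therefore not read as a trait of clusters.

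The high-background clusters lay on 12 chromosomes, at positions that general knowledge of the genome places next to centromeres, where repeated sequence is common. They held 185 GSK2879552 and 196 vehicle summits inside their spans. Some low-background clusters lie near centromeres too, such as chr10:42356197-42366333, 13933 bp from a high-background cluster, and chr8:43785994-43805241, 17197 bp from one. Over 184 pairs the median was 101.5 GSK2879552 and 104 vehicle fragments, with a log2 ratio of -0.04 (-0.05 to -0.02). No pair reached a 1.5-fold difference in either direction, and 0 of 184 allows a share of up to 1.98%. Their median fold enrichment in vehicle was 2.91, the background 33.0 and the gap between summits 1755 bp. The fragments compared include this background, and its part in the ratios was not tested in these clusters alone. Log2 ratios near 0 are therefore not read as unchanged binding. Whether reads there were placed uniquely, and how duplicates were handled, was not tested.

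The longest clusters were nearly all of this kind: of the 12 with the most vehicle summits, 10 were high-background. The cluster chr2:92269490-92325884 had 26 GSK2879552 and 24 vehicle peaks, and its strongest peak, chr2:92324822-92325659, had 228 GSK2879552 and 206 vehicle fragments. The cluster chr4:49093716-49158503 had 20 GSK2879552 and 24 vehicle peaks, and its strongest, chr4:49104448-49104778, had 100 GSK2879552 and 117 vehicle fragments. On chromosome 16, chr16:46386956-46435388 had 23 GSK2879552 and 22 vehicle peaks, with 248 GSK2879552 and 258 vehicle fragments at chr16:46391867-46392280. The summed log2 ratios of these 3 were -0.03, -0.09 and -0.06.

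The other 7 high-background clusters of the 12 had summed log2 ratios from -0.08 to 0.00. Chromosome 10 held chr10:42380266-42409258 with 18 GSK2879552 and 17 vehicle peaks, and chr10:42527409-42546071 with 14 of each. Their strongest peaks had 266 GSK2879552 against 273 vehicle fragments at chr10:42389175-42389545, and 147 GSK2879552 against 136 vehicle fragments at chr10:42529247-42529636. The cluster chrX:61682402-61731075 had 15 GSK2879552 and 16 vehicle peaks, and chr8:46839942-46889795 had 16 of each. At their strongest peaks 84 GSK2879552 and 101 vehicle fragments were found at chrX:61687282-61687511, and 123 GSK2879552 and 125 vehicle fragments at chr8:46841547-46841933. The clusters chr7:61967236-62004875 and chr19:27732143-27750166 had equal numbers in the lists, 12 and 8 peaks each. The cluster chr11:51568556-51593096 had 13 GSK2879552 and 11 vehicle peaks. The strongest peaks of these 3 had 322 GSK2879552 against 333 vehicle fragments at chr7:61968592-61969702, 277 GSK2879552 against 276 vehicle at chr19:27731889-27732384, and 185 GSK2879552 against 205 vehicle at chr11:51586730-51587124.

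A single low-background cluster had 9 vehicle summits and 5 had 8, of which the 2 with the larger sum of vehicle fragments, on chromosomes 4 and 10, are described peak by peak beside it. The cluster chr10:33595866-33641305 spans 45439 bp, the longest of the low-background set, and on general knowledge of the hg19 build lies at NRP1, a co-receptor for semaphorins and vascular endothelial growth factor. No hg19 annotation was used here, so this and the other gene placements are background; the chromosome of each named gene was checked in RefSeq. The cluster had 3 GSK2879552 and 8 vehicle peaks. Its 3 pairs had 47 GSK2879552 against 81 vehicle fragments at chr10:33595654-33596018, 49 GSK2879552 against 79 vehicle at chr10:33617910-33618420, and 25 GSK2879552 against 37 vehicle at chr10:33630670-33630967. All 3 pairs were lower, and the summed log2 ratio of -0.71 was among the 3 lowest of the 71.

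The 5 vehicle peaks of this cluster with no GSK2879552 counterpart were weaker than its pairs. They were chr10:33603772-33604026 with 27 fragments, chr10:33615005-33615239 with 35, chr10:33624925-33625178 with 19, chr10:33638977-33639232 with 29 and chr10:33641187-33641409 with 27. Their backgrounds ran from 4.55 to 7.82 fragments. The nearest GSK2879552 summit was 2994 bp from the second of these and 10539 bp from the last. The 3 remaining GSK2879552 peaks lay more than 12.5 kb apart, so no 2 of them would be chained.

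The cluster chr2:89865326-89879915, with a background of up to 21.2 fragments, kept all 9 of its vehicle peaks. Fragments were 32 in GSK2879552 and 47 in vehicle at chr2:89865203-89865471, 74 in GSK2879552 and 85 in vehicle at chr2:89867301-89867599, and 68 in GSK2879552 and 77 in vehicle at chr2:89867925-89868344. They were 59 in GSK2879552 and 71 in vehicle at chr2:89869738-89869973, 66 in GSK2879552 and 67 in vehicle at chr2:89872073-89872262, and 94 in GSK2879552 and 92 in vehicle at chr2:89875172-89875472. They were 54 in GSK2879552 and 56 in vehicle at chr2:89878353-89878652, 61 in GSK2879552 and 64 in vehicle at chr2:89878996-89879377, and 46 in GSK2879552 and 52 in vehicle at chr2:89879779-89879975. Of the 9 pairs 8 were lower after GSK2879552, and the summed log2 ratio was -0.14.

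The cluster chr4:49634732-49659612, with a background of up to 16.3 fragments, had 8 GSK2879552 and 8 vehicle peaks. Fragments were 38 in GSK2879552 and 36 in vehicle at chr4:49634592-49634770, 33 in GSK2879552 and 36 in vehicle at chr4:49636113-49636416, and 58 in GSK2879552 and 65 in vehicle at chr4:49637442-49637688. They were 49 in GSK2879552 and 56 in vehicle at chr4:49641026-49641364, 44 in GSK2879552 and 47 in vehicle at chr4:49652515-49652933, 39 in GSK2879552 and 48 in vehicle at chr4:49653337-49653556, and 97 in GSK2879552 and 110 in vehicle at chr4:49659440-49659862. Within the equal totals, each list held a peak that was not called in the other, which does not show an exchange of sites. A vehicle peak of 48 fragments at chr4:49646663-49646843 had no counterpart, and a GSK2879552 peak of 39 fragments at chr4:49644627-49644821 had none in vehicle, with summits 2039 bp apart.

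**Figure D5:**
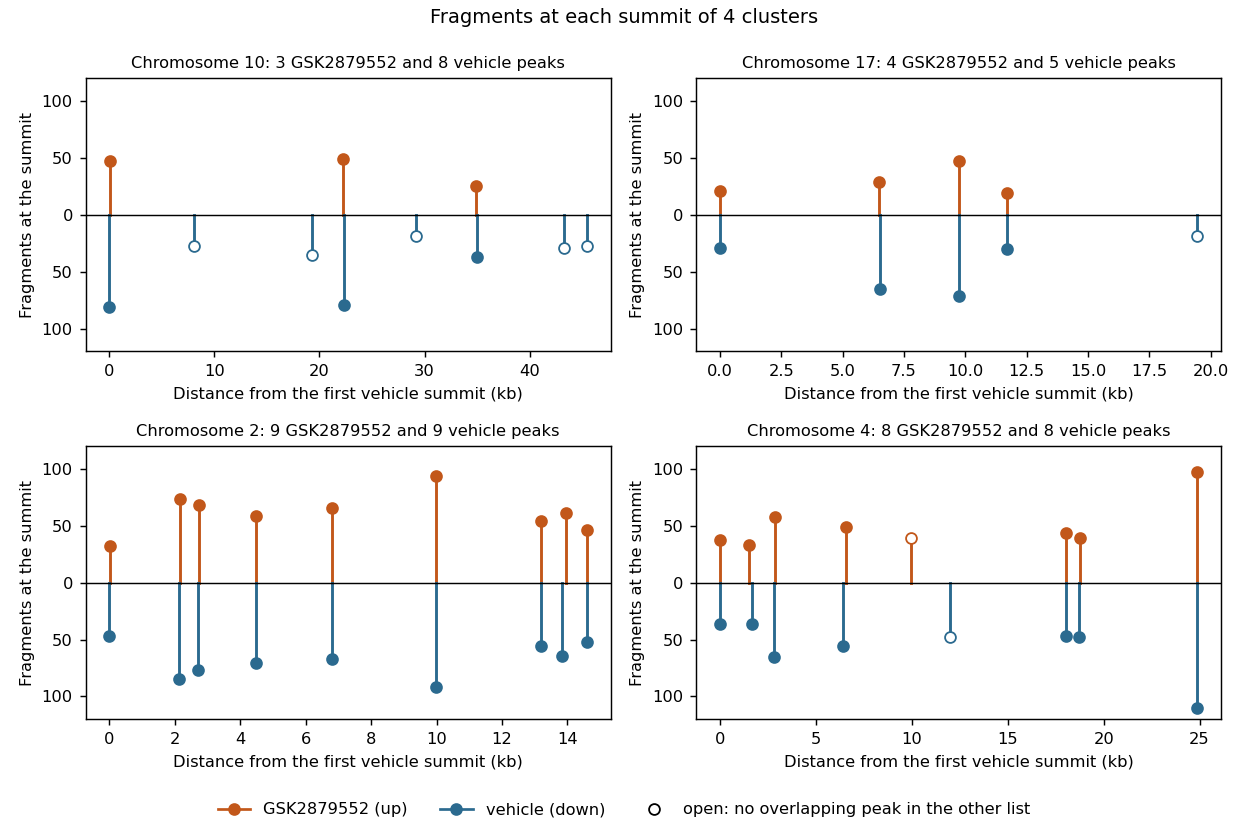
Fragments at each summit by distance in kb from the first vehicle summit, for 3 low-background clusters with most vehicle summits (on chromosomes 10, 2 and 4; ties at 8 summits taken by the larger fragment sum) and the cluster with the lowest summed fragment ratio (on chromosome 17); GSK2879552 points upward and vehicle downward, and open circles have no overlapping peak in the other list. The chromosome 10 cluster has 5 open vehicle circles and its 3 GSK2879552 peaks are shorter than their vehicle partners, whereas the chromosome 2 cluster has none open.

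Besides the chromosome 10 cluster, 4 others made up the 5 lowest overlapped shares; a further cluster on chromosome 12, chr12:90144693-90173061, tied with 3 of them at 40% and was left out by the tie rule. At chr7:31987898-32010222, 1 of 5 vehicle peaks was overlapped, the strongest, chr7:32010104-32010352, with 21 GSK2879552 and 24 vehicle fragments. Its 4 other vehicle peaks had 12 to 20 fragments. At chr12:25945141-25966810, 2 of 5 were overlapped, with 29 GSK2879552 and 43 vehicle fragments at the strongest, chr12:25966694-25967047. At chr21:37826729-37850718, 2 of 5 were overlapped, with 42 GSK2879552 and 51 vehicle fragments at chr21:37843612-37844005, and 1 GSK2879552 peak of 19 fragments overlapped none. The fifth, chr2:90371843-90391411, was 2 of 5 on a background of up to 15.9 fragments; it holds the strongest peak without a counterpart, and its pairs summed to 81 fragments in each list.

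The 5 clusters with the highest overlapped share under the tie rule had every vehicle peak overlapped, and 4 of them, the chromosome 2 cluster included, had a background of 10 to 25. General knowledge of hg19 places 4 of the 5 near centromeres, all but chr1:565215-569925. The cluster chr1:121352558-121360066 kept 7 of 7, with 69 GSK2879552 and 79 vehicle fragments at chr1:121355628-121355878. The cluster chr10:42356197-42366333 kept 6 of 6, with 93 GSK2879552 and 94 vehicle fragments at chr10:42360594-42360900. The cluster chr1:565215-569925, the shortest low-background span, kept 5 of 5, with 48 GSK2879552 and 63 vehicle fragments at chr1:564623-565327; general knowledge of hg19 places a nuclear copy of mitochondrial DNA there. The cluster chr12:34834081-34853903 kept 6 of 6 on a background of at most 7.77, with 55 GSK2879552 and 56 vehicle fragments at chr12:34846790-34847090. Among the 63 clusters with a background under 10 throughout, 6 kept every vehicle peak.

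Summed over pairs, the lowest ratios were at chr17:70384317-70403779 (log2 -0.75), at the chromosome 10 cluster already described, and at chr20:52390499-52422600 (-0.64). In the chromosome 17 cluster 4 of 5 vehicle peaks were overlapped, with 47 GSK2879552 and 71 vehicle fragments at the strongest, chr17:70393874-70394195. In the chromosome 20 cluster 4 of 6 were overlapped, with 25 GSK2879552 and 42 vehicle fragments at chr20:52390348-52390735. The highest were chr8:43760541-43772296 (0.24), chr12:34834081-34853903 (0.08) and chr9:66817330-66843852 (0.07), with 37 GSK2879552 and 34 vehicle fragments at chr8:43772148-43772502, and 100 GSK2879552 and 98 vehicle at chr9:66833034-66834069. All pairs of the chromosome 17 cluster were lower after GSK2879552. General knowledge of hg19 places these 3 highest clusters near centromeres as well. The summed ratio was above 0 in 5 of 71 clusters, and in none of those did it reach 1.5-fold.

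Single pairs with the lowest ratios, chosen after their values were seen, each stood at the second strongest vehicle peak of their cluster. They had 21 GSK2879552 against 48 vehicle fragments on chromosome 18 (log2 -1.20), in the cluster chr18:6719712-6747849, and 29 GSK2879552 against 65 vehicle on chromosome 17 (-1.17), in the cluster with the lowest sum. The highest had 16 GSK2879552 against 10 vehicle fragments on chromosome 20 (0.68), in chr20:29804538-29829592, and 25 GSK2879552 against 16 vehicle on chromosome 8 (0.64), in chr8:43760541-43772296. In low-background clusters a ratio 1.5-fold higher was reached by these 2 pairs alone.

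Several further clusters are given with the gene at which general knowledge of hg19 places them, and were picked after their values were seen, with no gene theme tested. The cluster chr10:63990625-64008533, at RTKN2, kept 7 of 8 vehicle peaks in 1 chain. Its strongest vehicle peak, chr10:63990479-63990839, had 25 GSK2879552 against 47 vehicle fragments, and chr10:64005938-64006169 had 34 GSK2879552 against 32 vehicle fragments. The vehicle peak with no overlap, chr10:63996794-63997061, had 28 fragments and a GSK2879552 summit 1025 bp away. Here the sites stayed while most carried fewer fragments: the summed log2 ratio was -0.34, and 6 of 7 pairs were lower.

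At TM4SF1, which encodes a membrane protein related to the tetraspanins, chr3:149084971-149119554 kept 6 of 8 vehicle peaks. Its strongest peak, chr3:149119354-149119725, had 68 GSK2879552 against 80 vehicle fragments. At EXT1, a polymerase of heparan sulfate chains, chr8:119004551-119042136 kept 5 of 7, with 43 GSK2879552 against 54 vehicle fragments at chr8:119011308-119011626. At FERMT2, which encodes the integrin activator kindlin-2, chr14:53373314-53401697 kept 6 of 7, with 67 GSK2879552 against 89 vehicle fragments at chr14:53386652-53387051. At KCNMA1, a calcium-activated potassium channel, chr10:78916496-78928150 kept 3 of 5, with 126 GSK2879552 against 153 vehicle fragments at chr10:78923730-78924051, on a background of up to 14.2 fragments. Near PTGER2, a prostaglandin E2 receptor gene, chr14:52794246-52822961 kept 6 of 7, with 69 GSK2879552 against 83 vehicle fragments at chr14:52821624-52822079 and a summed log2 ratio of -0.29. At MAP3K13, a kinase gene, chr3:185053808-185084936 kept 4 of 6, with 64 GSK2879552 against 73 vehicle fragments at chr3:185055052-185055421 and a summed log2 ratio of -0.36. At CCDC50, chr3:191039361-191076889 kept 5 of 8, with 21 GSK2879552 against 43 vehicle fragments at chr3:191049281-191049558 and a summed log2 ratio of -0.62. The summed log2 ratios of the TM4SF1, EXT1, FERMT2 and KCNMA1 clusters ran from -0.41 at EXT1 to -0.30 at FERMT2, close to the median of -0.32 over the 71.

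A pair of clusters shows how the stitching distance divides neighbouring sites. At LPP, a focal adhesion protein gene, chr3:187946631-187962311 and chr3:187975322-187990556 are separated by 13011 bp, just over the limit. The first had 3 GSK2879552 and 5 vehicle peaks, and its pairs had 17 GSK2879552 against 18 vehicle, 18 GSK2879552 against 22 vehicle and 26 GSK2879552 against 25 vehicle fragments. The second also had 3 GSK2879552 and 5 vehicle peaks. Its pairs had 87 GSK2879552 against 116 vehicle fragments at chr3:187980806-187981193, 29 GSK2879552 against 25 vehicle at chr3:187986882-187987177 and 25 GSK2879552 against 36 vehicle at chr3:187990294-187990718. Pairs of the first cluster thus differed by at most 4 fragments, and those of the second differed in both directions. In each cluster 3 of 5 vehicle peaks were overlapped. A vehicle peak of the second with no overlap had 44 fragments.

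Chains just inside the rule had more fragments and a higher overlapped share than those just outside, though the intervals of the share overlapped. Low-background chains of 5 vehicle summits, 42 in number, had an overlapped share of 70.5% (63.8 to 76.6; 148 of 210). Their median was 26.5 vehicle fragments, with a log2 ratio of -0.32 at pairs. The 117 low-background chains of 4 had 63.7% (59.1 to 68.0; 298 of 468), 22 fragments and -0.31. Chains of 3, 2 and 1 summits, not split by background, had 63.3%, 63.3% and 60.5%, with medians of 21, 20 and 17 fragments.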

How the data were processed

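For each group, GSK2879552 and vehicle, 1 deposited peak list covers 2 sequencing lanes. The submitters' processing notes list hg19 and the tools MACS2 2.1.2, BWA 0.7.2 and SAMtools 0.1.18. Not given in the sources used here are options, duplicate handling and any control library. The assay is ATAC-seq in the descriptions of the samples but FOXA2 ChIP-seq in their titles and in the series; ChIP-seq was followed.

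Each peak's deposited fold enrichment is a ratio from the authors' caller, fragments plus 1 over local background plus 1. The same caller gave the deposited −log10 of p and of q, and a deposited score of 10 times the −log10 of q, cut to a whole number. Peak folds and −log10 p are the authors' values and were used within a list.

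Fragments at each summit were the whole number that gave the deposited p within 0.001 in −log10 p, which 100% of peaks in both lists had; 3 vehicle and 7 GSK2879552 peaks had a second candidate. Backgrounds were converted to reads in 10 kb with the shortest interval (168 bp in GSK2879552, 175 bp in vehicle) as fragment length. Fragment ratios were scaled by the background floors, 1.082 in GSK2879552 and 1.079 in vehicle. The steps were tested on simulated data, where 100% of 1000 fragment numbers per list, 234 planted chains and 1294 planted overlaps were found. Overlaps were checked with bedtools 2.31.1. Shares carry exact binomial intervals, medians binomial order-statistic intervals; Python 3.11.15 and scipy 1.17.1 were used.

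Named clusters were the 12 with the most vehicle summits and, among low-background clusters, the 5 lowest and 5 highest in overlapped share and the 3 lowest and 3 highest in summed fragment ratio. Every peak was named in the 3 low-background clusters with most summits (ties by the larger fragment sum), and the strongest peak in the others. Clusters named beyond this rule are said to be so. Members, lists and limits were chosen with earlier results of these data known. Alternatives were other stitching distances, summit numbers, thresholds and overlap rules. Motifs and genes in the clusters were not analysed here, since no hg19 sequence or annotation was used.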

Additional observations from a re-analysis of the deposited data

How the results depend on the processing

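The clusters and their values changed with the rule that defines them, by construction. With a stitching distance of 5000 bp there were 21 clusters, a ratio of peak numbers inside spans of 0.895, an overlapped share of 95.3%, a difference from other vehicle peaks of 33.6 points and a median log2 fragment ratio of -0.051. With 25000 bp these were 261, 0.613, 69.9%, 8.61 points and -0.25. With at least 4 summits they were 204, 0.608, 72.8%, 11.5 points and -0.19, and with at least 8 summits 16, 0.878, 89.2%, 27.5 points and -0.058. The values as reported over all 86 clusters were 0.713, 80.5%, 19.0 points and -0.11. Without the high-background clusters they were 0.600, 73.9%, 12.5 points and -0.25, and without clusters holding a background of 10 or more 0.580, 72.2%, 10.7 points and -0.31. Clusters built on the GSK2879552 list, 47 in number, gave a ratio of 1.16, the reverse of the main direction, with 94.1%, 32.6 points and -0.060. Counting overlapping peaks at the span ends gave a ratio of 0.836. Summits within 100 bp gave 73.8% and 14.8 points, and keeping only peaks with −log10 q of 5 or more gave 22.6 points. The difference from other peaks averaged 12.3 points over bins by −log10 p, and 6.33 without high-background clusters. Over bins by fragments it reversed, to -3.72 and -3.91 points. Over classes of fragments and background it was 1.40 points without high-background clusters; with them it was 15.9 points, resting on 4 other peaks at a background of 25 or more. The bins by fragments, the bins by −log10 p without high-background clusters, the classes, the limit of 10 and the span ends were added after seeing the data. Beyond what these constructions remove, the cause was not tested. The remaining alternatives, such as 50% coverage of the vehicle peak, fragments above background and no scaling, moved no value beyond its interval.

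Settings without a lane were not run, since the lists combine both. No paired analysis was possible because the 2 lists carry no replicates. Motif and gene settings were not run. With 1 library per group the spread between cultures is unknown, and a site absent from a list is one not called at that depth, not one shown to be unbound.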
